A study of Mus musculus with 6 samples.

Results

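Respiratory complexes II to V, together with cytochrome c, were followed through 63 nuclear genes in oocytes of aged mice with and without aminophylline. The genes were chosen by their symbols among the 17773 protein-coding genes of a table of 25631 genes, and the rule used no measured value, although results of these data were known when it was set. Complex II had 4 subunit genes and 4 assembly factor genes, complex III had 9 and 3, complex IV had 16 and 9, complex V had 17 subunit genes, and cytochrome c was the single gene *Cycs*. Oocytes were taken from the large antral follicles of 14-month-old ICR mice that had been given equine chorionic gonadotropin to bring on follicle growth. In the aminophylline group (3 libraries) the drinking water held 4.0 mM aminophylline, a theophylline salt that inhibits phosphodiesterases without selecting a subtype, for 1 week, and plain water followed for 3 weeks. The control group (3 libraries) had plain water throughout and is labelled as aged and untreated. How many mice or oocytes went into a library, and whether animals were pooled, is not given in the sources used here. The p-values therefore measure the spread between these libraries, which may be technical.

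The respiratory chain passes electrons from food-derived carriers to oxygen in the inner mitochondrial membrane. Complex II (succinate dehydrogenase) takes electrons from succinate, complex III hands them to the small carrier cytochrome c, and complex IV (cytochrome c oxidase) passes them to oxygen. Complexes III and IV pump protons, and complex V (ATP synthase) uses the proton gradient to make ATP. The mouse oocyte carries a very large store of mitochondria and relies on this pathway for its ATP, since it takes up little glucose itself. The proteins are built from nuclear genes such as those followed here and, in complexes III, IV and V, also from genes of the mitochondrial DNA.

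Levels are given as FPKM, the fragments counted on a gene per kilobase of its transcript, scaled to the number of fragments counted in the library. Library totals, as recovered from the FPKM values, ranged from 14112341 reads in control library 2 to 33641283 in control library 1. The 12 defining oocyte markers had a summed FPKM of 8563 to 14297 in the control group and 10881 to 13157 in the aminophylline group. None of the 12 was under an FPKM of 1 in every library, although such a sum can be carried by a few of them. The 12 granulosa and cumulus markers summed to 17.8 to 25.4 and 20.3 to 25.5, and 8 of them were under 1 in every library. The 11 macrophage markers summed to 249 in control library 1 and to 82.8 to 103 in the other 5 libraries, and their part in the differences below was not tested. The theca and stroma markers summed to 0.515 to 1.62 over the 6 libraries, the erythrocyte markers to 0.0486 to 0.585 and the endothelial markers to 5.63 to 8.89. In bulk RNA a smaller number of oocytes and less RNA per oocyte cannot be told apart.

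**Figure D1:**
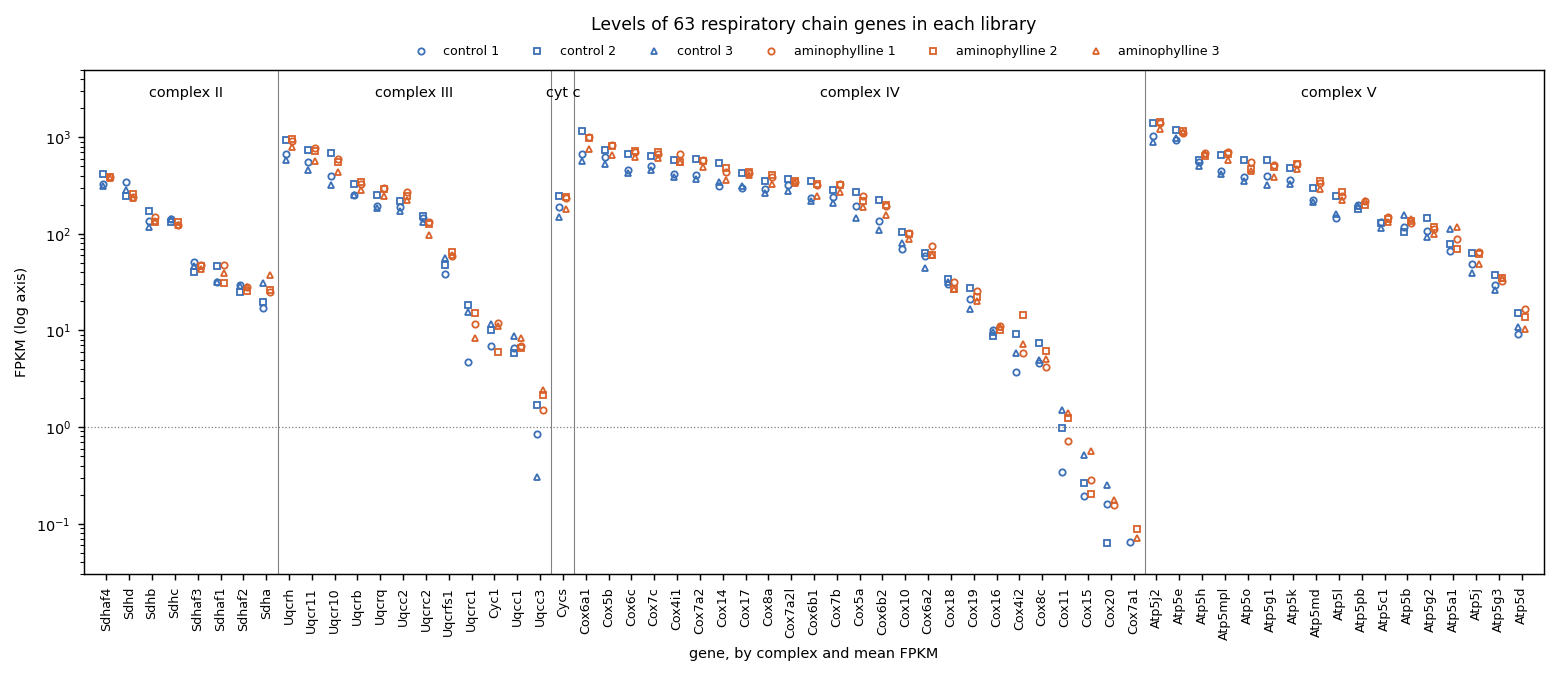
FPKM (log axis) of the 63 genes in each of the 6 libraries, by complex and in order of mean FPKM (control blue, aminophylline orange; circles, squares and triangles are libraries 1, 2 and 3; values of 0 are left off; the dotted line is an FPKM of 1). Means run from 0.0372 for Cox7a1 to 1233 for Atp5j2, and the blue squares of control library 2 often lie with the orange symbols.

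Most of the 63 genes were well expressed, and 60 reached 1 FPKM in 3 or more of the 6 libraries, the filter under which 10340 genes were tested. The other 3 were complex IV genes. *Cox15*, which makes heme A, was at 0.192 to 0.559, *Cox20*, a chaperone of the mitochondrially encoded subunit COX2, at 0 to 0.252, and *Cox7a1*, the heart and muscle isoform of subunit 7a, at 0 to 0.0878. The 63 genes made up 2.60%, 3.23% and 2.56% of the summed FPKM of control libraries 1, 2 and 3, and 3.25%, 3.30% and 3.02% of that of aminophylline libraries 1, 2 and 3. The aminophylline libraries thus lay above control libraries 1 and 3, while control library 2 lay among them. Complex IV made up 0.939% to 1.29% over the 6 libraries, complex V 0.948% to 1.20%, complex III 0.431% to 0.586% and complex II 0.180% to 0.198%.

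Compared with control, 5 of the 60 tested genes were higher in the aminophylline group at an unadjusted p under 0.05 in limma, against 4.41% of all genes tested, and 0 were lower, against 2.84%. The 5 were the complex III assembly factor *Uqcc3*, the complex III subunit *Uqcrq* and the complex V subunits *Atp5l*, *Atp5md* and *Atp5k*. With a fold change over 1.5 as well, *Uqcc3* alone was left, against 2.08% of all genes tested. After Benjamini-Hochberg adjustment over the 10340 genes, 0 of the 60 genes and 0% of all genes tested passed 0.05 in limma, and the smallest adjusted p of the 60 was 0.682. The unmoderated linear model had 1 gene higher at an unadjusted p under 0.05, against 3.94% of all genes tested, voom on the recovered reads had 6, against 4.2%, and limma with library weights had 19, against 13.5%. The median log2 difference of the 60 genes was 0.19, and that of all genes tested was 0.10. A difference above 0 was found in 51 of 60 genes (85.0%), against 64.8% of all genes tested. When each library was centred on its median gene, 0 of the 60 were higher at an unadjusted p under 0.05, against 2.72% of all genes tested, and 0 were lower, against 4.85%. When each library was rescaled to a common sum, 10 were higher, against 2.73%, and 1 (*Uqcrc2*) was lower, against 2.82%.

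With pairs of equal replicate number as a block in limma, 13 of the 60 genes were higher at an unadjusted p under 0.05, against 9.88% of all genes tested, and 0 were lower, against 4.3%. The 8 genes added by the block were *Sdha*, *Uqcc2*, *Uqcrfs1*, *Cox4i1*, *Cox4i2*, *Cox6c*, *Cox7c* and *Atp5mpl*. The sources do not say what libraries of equal number share, so these may not be true pairs. In deviations from the group means, control library 2 correlated more with aminophylline library 1 (0.423) than with aminophylline library 2 (0.14). No gene of the 60 passed an adjusted p of 0.05 with the block (smallest 0.152), where 0.338% of all genes tested were higher at that threshold. Within the pairs of equal number, 23 of 60 genes were higher in 3 of 3 pairs, against 25.9% of all genes tested, and 1 gene, *Uqcrc2*, was lower in 3 of 3, against 10.5%. The median log2 difference of the 60 genes was 0.43 in pair 1, -0.01 in pair 2 and 0.27 in pair 3, so that pair 2 did not show the difference seen in the other pairs. Over all genes tested these medians were 0.06, 0.15 and 0.04.

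**Figure D2:**
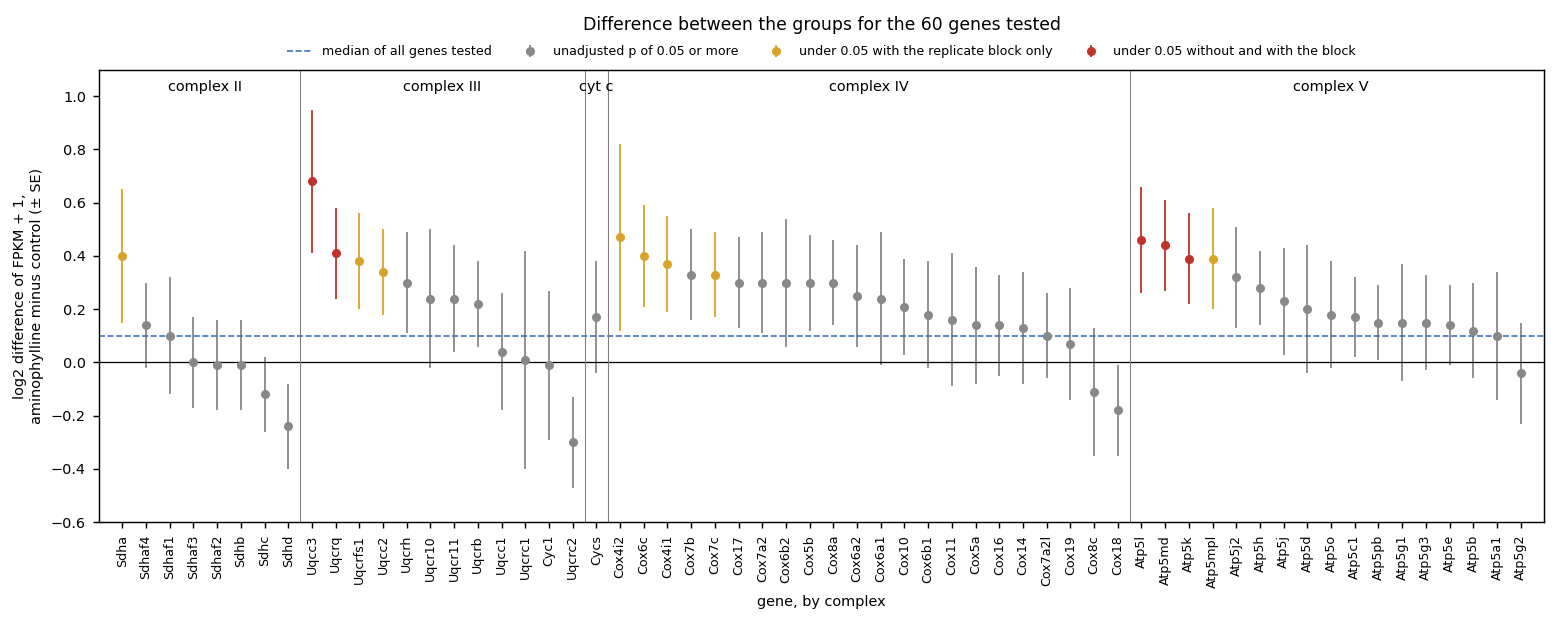
Log2 difference of FPKM + 1, aminophylline minus control (n = 3 libraries each), with its standard error from limma, for the 60 tested genes by complex. Red genes (5) had an unadjusted p under 0.05 without and with the replicate block, yellow genes (8) with the block only, grey genes in neither; the dashed line is the median of all genes tested, 0.10.

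These counts depended on control library 2. Without it, 29 of the 60 genes were higher at an unadjusted p under 0.05, against 8.37% of all genes tested. In the same fit 1 gene (*Sdhd*) was lower, against 7.27%. Below 831 bases, the members' median length, 22 of 29 members and 301 of all 1066 genes were higher in this fit. The median log2 difference of these shorter transcripts was 0.44 for the members and 0.30 for all genes. Over all 60 genes the median log2 difference was then 0.36, against 0.07 over all genes tested. It was 0.16, against 0.07 over all genes tested, without control library 1, and 0.15 against 0.13 without control library 3. Without control library 1 the count of higher genes was 0, against 2.07%, and without control library 3 it was 2 (*Sdha* and *Uqcrfs1*), against 11.8%. Without aminophylline library 1 it was 1, against 5.23%, without library 2 it was 0, against 1.96%, and without library 3 it was 3, against 2.41%. Control library 2 was above both other control libraries in 46 of the 60 genes, a pattern found in 26.8% of all genes tested. All aminophylline libraries were above control libraries 1 and 3 in 36 of the 60 genes, against 17.3% of all genes tested, and below both in 4, against 14.6%. With all 6 libraries, the groups did not overlap in 4 genes that were higher (*Uqcc2*, *Uqcrfs1*, *Atp5h* and *Atp5pb*), against 7.51%, and in 1 gene that was lower (*Uqcrc2*), against 4.96%. Of the 60 genes, 22 had their highest value in control library 2 and 34 their lowest in control library 3.

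The 60 genes have short transcripts, with a median length of 831 bases against 2771 for all genes tested. The shorter members were also the more abundant (Pearson r of log2 mean FPKM with log2 length -0.53 over the 60 genes and -0.30 over all genes tested, given as a description). The libraries differed by transcript length. In control library 2 a gene's deviation from its mean over the 6 libraries went down with length (r -0.40 over the 60 genes, -0.37 over all), and in control library 3 it went up (0.55 and 0.44). For control library 1 these values were 0.12 and -0.02. The aminophylline libraries also differed among themselves, with -0.26 and -0.39 in library 1, -0.40 and -0.04 in library 2, and 0.14 and 0.29 in library 3. Among the 29 members shorter than the median, the median deviation was -0.25, 0.22 and -0.39 in control libraries 1, 2 and 3 and 0.23, 0.23 and 0.01 in aminophylline libraries 1, 2 and 3. Among the 31 longer members it had the same signs and was nearer 0 in every library but aminophylline library 3, at -0.14, 0.09 and -0.06 and at 0.09, 0.08 and 0.01. The median log2 difference between the groups was 0.30 for the shorter members and 0.14 for the longer ones, beside 0.19 for the 1066 shorter genes and 0.09 for the 9274 longer genes of all those tested. At an unadjusted p under 0.05, 3 of the 29 shorter members (10.3%) were higher, close to the 9.85% of all shorter genes, and 2 of the 31 longer members (6.45%), beside 3.78% of all longer genes.

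**Figure D3:**
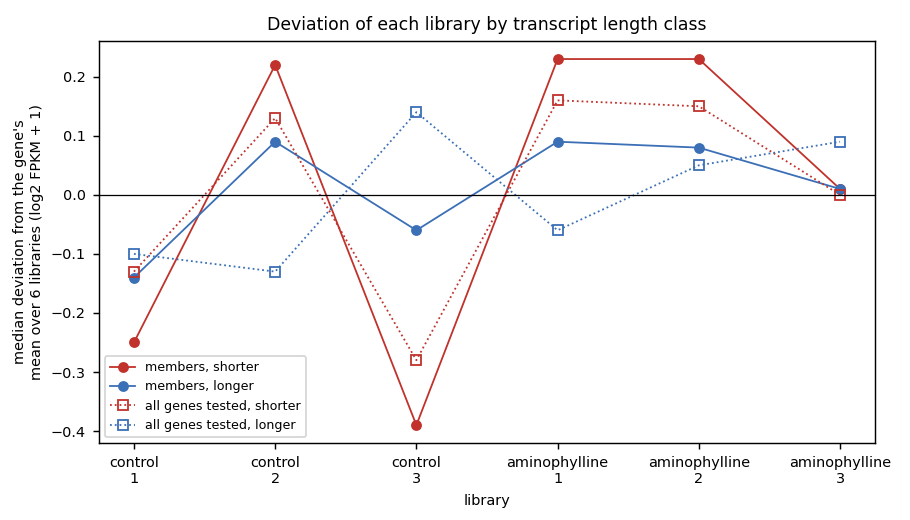
Median deviation of each library from a gene's mean over the 6 libraries (log2 of FPKM + 1), for members (filled) and all genes tested (open squares, dotted) with transcripts shorter (red) or longer (blue) than the members' median of 831 bases. Shorter members swing from -0.39 in control library 3 to 0.23 in aminophylline libraries 1 and 2, and control library 2 lies at 0.22.

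After a loess correction of each library for transcript length and GC content, 8 of the 60 genes were higher at an unadjusted p under 0.05, against 5.26% of the 9508 genes with a known GC content, and 0 were lower, against 2.58%. With the replicate block in the same fit, 15 were higher, against 10.8%, and 0 were lower, against 3.98%. The smallest adjusted p of a member was then 0.205. The corrected median log2 difference was 0.15 for the members and 0.10 for all genes. Of the 5 genes first named, *Uqcc3*, *Uqcrq*, *Atp5l* and *Atp5md* stayed under 0.05 with the correction, and *Atp5k* was at an unadjusted p = 0.137.

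Complex II had the smallest median difference of the 4 complexes. The median log2 difference of its 8 genes was 0.00, and 4 of them (50.0%) were above 0, against 64.8% of all genes tested. Without the block, 0 of the 8 passed an unadjusted p of 0.05 in either direction. *Sdha*, the flavoprotein that oxidizes succinate, was at 17.1, 19.7 and 30.9 FPKM in control libraries 1, 2 and 3 and at 24.9, 26.2 and 37.6 in aminophylline libraries 1, 2 and 3. Each aminophylline library was above the control library of the same number, while the groups overlapped. The log2 difference was 0.40 ± 0.25 (SE), with an unadjusted limma p of 0.135 without the block and 0.0407 with it (adjusted p = 0.322). Without control library 3 the difference was 0.64 (unadjusted p = 0.0150), and without control library 1 it was 0.23 (unadjusted p = 0.407). *Sdha* was also the lowest of the complex II subunits in level, and its highest values were in the libraries numbered 3.

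The most abundant complex II subunit was *Sdhd*, a small membrane anchor that binds ubiquinone, with 344, 246 and 284 FPKM in the control group and 238, 259.9 and 237 in the aminophylline group. Its highest values were in control libraries 1 and 3, and control library 2 lay between aminophylline libraries 1 and 2. The log2 difference was -0.24 ± 0.16 (unadjusted p = 0.175, limma), the lowest of complex II, and -0.35 (unadjusted p = 0.0331) without control library 2. The other anchor, *Sdhc*, was at 131 to 143 in the control group and 124 to 134 in the aminophylline group, and the iron-sulfur subunit *Sdhb* was at 119 to 173 and 133 to 150. Neither passed an unadjusted p of 0.05. Of the assembly factors, *Sdhaf4*, which acts on *Sdha* before it joins *Sdhb*, was the most abundant, at 315 to 411 and 378 to 386. *Sdhaf1*, *Sdhaf2* and *Sdhaf3* lay between 24.8 and 51.2, with overlapping groups.

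In complex III, 10 of 12 genes (83.3%) had a difference above 0, against 64.8% of all genes tested. The median log2 difference was 0.24, against 0.10. *Uqcrq*, a small subunit next to cytochrome b, was at 193, 255 and 184 FPKM in the control group and at 298, 293 and 247 in the aminophylline group. Control libraries 1 and 3 were below every aminophylline library, and control library 2 was above aminophylline library 3. Its log2 difference was 0.41 ± 0.17 (95% interval 0.04 to 0.79), with an unadjusted p of 0.0349 and an adjusted p of 0.682 in limma, and a p of 0.0183 with the block. Leaving out 1 library at a time moved the unadjusted p from 0.00302, without control library 2, to 0.123, without aminophylline library 1.

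*Uqcc3*, an assembly factor that stabilizes newly made cytochrome b, had the largest log2 difference of the 60 genes at a very low level. Its FPKM was 0.858, 1.71 and 0.303 in the control group and 1.49, 2.14 and 2.44 in the aminophylline group, from 24, 20 and 8 reads and 35, 44 and 62 reads. Control library 2 lay above aminophylline library 1, and the other control libraries lay below all aminophylline libraries. On the log2 scale the difference was 0.68 ± 0.27 (unadjusted p = 0.0281, adjusted p = 0.682, limma), and with the block p was 0.00447 (adjusted p = 0.152). Its p was 0.0036 without control library 2 and 0.116 without control library 3. The size of the difference depended on the scale at this level, and it was 1.23 with a pseudocount of 0.1 and 1.46 in voom on the recovered reads.

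*Uqcc2* acts with *Uqcc1* in the translation of cytochrome b, and *Uqcc1* was at 5.90 to 8.81 and 6.55 to 8.38. *Uqcc2* was at 189, 221 and 174 in the control group and 272, 246 and 224 in the aminophylline group, with no overlap. The difference was 0.34 ± 0.16, with an unadjusted limma p of 0.0528 without and 0.0451 with the block. *Uqcrfs1*, the Rieske iron-sulfur protein that takes electrons from ubiquinol, was at 38.0, 47.4 and 56.7 and at 58.8, 65.1 and 60.3, again with no overlap, although control library 3 lay close to the lowest aminophylline value. Its difference was 0.38 ± 0.18 (unadjusted p = 0.0575 without and 0.0405 with the block, limma), and without control library 3 it was 0.52 (unadjusted p = 0.0147).

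The core subunit *Uqcrc2* had the lowest difference of complex III. It was at 145, 153 and 134 in the control group and 131, 126 and 96.3 in the aminophylline group, so that every aminophylline library was below every control library. The log2 difference was -0.30 ± 0.17 (95% interval -0.67 to 0.07, unadjusted p = 0.102, limma), which did not pass the threshold, and it was -0.15 after the length and GC correction. The most abundant complex III subunit was the hinge protein *Uqcrh*, at 662, 935 and 585 and at 902, 947 and 799. Control library 2 lay within the aminophylline range, and the difference was 0.30 ± 0.19 (unadjusted p = 0.136).

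The levels of complex III subunits were uneven. Cytochrome c1, which carries the heme that donates electrons to cytochrome c, is made from *Cyc1*, and this gene was at 5.95 to 11.8 FPKM over the 6 libraries. *Uqcrh* was 50 to 159 times as abundant as *Cyc1* within a library. The other core subunit, *Uqcrc1*, ranged from 4.67 in control library 1 to 18.4 in control library 2, and its aminophylline values lay inside that range. *Uqcrb*, *Uqcr10* and *Uqcr11* were at 252 to 769, and none passed an unadjusted p of 0.05. *Cycs* itself was at 191, 249 and 149 FPKM in the control group and 237, 238 and 180.3 in the aminophylline group. Control library 2 was the highest and control library 3 the lowest of the 6. Its log2 difference was 0.17 ± 0.21 (unadjusted p = 0.412, limma) and was -0.01 without control library 3. The coding sequence of *Cycs* has 4 close copies elsewhere in the annotation.

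Complex IV had a median log2 difference of 0.24 over its 22 tested genes. A difference above 0 was found in 20 of them (90.9%), against 64.8% of all genes tested. Without the block, complex IV had 0 genes at an unadjusted p under 0.05. Its 15 tested subunits had a median of 0.30 and its 7 tested assembly factors 0.14. With the block 4 subunits were higher at an unadjusted p under 0.05, namely *Cox4i1*, *Cox4i2*, *Cox6c* and *Cox7c*. That was 18.2% of the 22 tested genes, against 9.88% of all genes tested and 18.9% of those shorter than 831 bases. With the length and GC correction in the same fit, *Cox6c* (unadjusted p = 0.00984) and *Cox7c* (unadjusted p = 0.0243) stayed under 0.05, while *Cox4i1* was at 0.22 (unadjusted p = 0.0625) and *Cox4i2* at 0.33 (unadjusted p = 0.105) on the log2 scale. *Cox6c*, a small accessory subunit, was at 457, 675 and 428 FPKM in the control group and 698, 712 and 618 in the aminophylline group. Control library 2 was above aminophylline library 3, and control libraries 1 and 3 were below it. The log2 difference was 0.40 ± 0.19 (unadjusted p = 0.0551 without and 0.0201 with the block, limma; unadjusted p = 0.00114 without control library 2). *Cox7c*, another small subunit, was at 501, 634 and 460.2 and at 674, 700.2 and 615, with control library 2 again above aminophylline library 3. Its difference was 0.33 ± 0.16 (unadjusted p = 0.0692 and 0.0476).

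The regulatory subunit *Cox4i1*, among the first nuclear subunits to join the complex, was at 417, 577 and 383 in the control group and 670.2, 549 and 547 in the aminophylline group. Control library 2 was the second highest of the 6 libraries. The difference was 0.37 ± 0.18 (unadjusted p = 0.0670 without and 0.0363 with the block, limma). Among the assembly factors, *Cox18*, which inserts part of COX2 into the membrane, had the lowest difference of complex IV. It was at 30.4, 34.4 and 31.7 in the control group and 31.7, 26.6 and 26.9 in the aminophylline group. Control library 3 and aminophylline library 1 were nearly equal, and the difference was -0.18 ± 0.17 (unadjusted p = 0.317).

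The other complex IV assembly factors spanned the range of detection. *Cox17*, a copper chaperone, was at 299.8 to 428 and 402 to 431, and *Cox14*, which acts in early assembly of COX1, was at 316 to 538 and 359 to 485. *Cox10*, the farnesyltransferase that starts heme A synthesis from heme, was at 69.6 to 104 and 88.9 to 103, while *Cox15*, which completes it, stayed under 1 in every library. *Cox11*, which brings copper to COX1, was at 0.342 to 1.52 and 0.721 to 1.40. *Cox16* was at 8.82 or above in every library, and *Cox19* at 16.8 to 27.2 and 20.1 to 25.8. The subunits *Cox5a* and *Cox5b*, both on the matrix side of the complex, were at 146 to 271 and 191 to 244 and at 522 to 743 and 656 to 832. None of these passed an unadjusted p of 0.05.

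In complex V, 16 of 17 genes (94.1%) had a difference above 0, against 64.8% of all genes tested and 75.2% of those shorter than 831 bases. The median log2 difference was 0.18, against 0.10 and 0.19. At an unadjusted p under 0.05 there were 3 higher genes (17.6%), against 4.41% of all genes tested and 9.85% of those shorter than 831 bases. The 3 genes encode small subunits of the membrane part, where subunits e and g help to join ATP synthases into dimers. *Atp5l* (subunit g) was at 144, 244 and 160.4 FPKM in the control group and 245, 268 and 222 in the aminophylline group. Control library 2 lay inside the aminophylline range and the other control libraries lay below it. The log2 difference was 0.46 ± 0.20 (95% interval 0.01 to 0.90), the highest of complex V, with an unadjusted p of 0.0455 (adjusted p = 0.684, limma) and 0.0123 with the block. Its p was 0.000887 without control library 2 and 0.175 without control library 1. *Atp5l* has 8 close copies in the annotation, more than any other member.

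*Atp5md*, which encodes the small protein DAPIT, was at 222, 300.2 and 211 in the control group and 337, 356 and 292 in the aminophylline group. Control library 2 was above aminophylline library 3 alone. Its log2 difference was 0.44 ± 0.17 (unadjusted p = 0.0296, adjusted p = 0.682, limma; 0.0122 with the block), and p was 0.112 without aminophylline library 2. *Atp5k* (subunit e) was at 359, 483 and 326 and at 525, 522 and 467. The pattern of libraries was the same, and the difference was 0.39 ± 0.17 (unadjusted p = 0.0468, adjusted p = 0.684, limma; 0.0237 with the block). Of the 6 fits that left out a library, *Atp5k* was under 0.05 in 1, the fit without control library 2 (unadjusted p = 0.00207), and its p was 0.144 without control library 3. *Atp5mpl*, which encodes a small proteolipid of the same membrane region, was at 448, 661 and 412 and at 708, 671 and 579. Control library 2 lay inside the aminophylline range, and the difference was 0.39 ± 0.19 (unadjusted p = 0.0688 without and 0.0260 with the block).

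The most abundant of the 63 genes was *Atp5j2* (subunit f), at 1021, 1410.2 and 890.4 in the control group and 1404, 1447 and 1228 in the aminophylline group. Control library 2 lay within the aminophylline range, and the difference was 0.32 ± 0.19 (unadjusted p = 0.116, limma). In the catalytic head, *Atp5a1* (alpha) was at 65.9 to 113 and 69.7 to 117 and *Atp5b* (beta) at 104 to 158 and 128 to 143. The subunits of the rotor stalk were far apart in level, with *Atp5e* (epsilon) at 927 to 1192, *Atp5c1* (gamma) at 115 to 148 and *Atp5d* (delta) at 9.27 to 16.7 over the 6 libraries. *Atp5j2* was 82.4 to 118 times as abundant as *Atp5d* within a library. In the peripheral stalk, *Atp5h* (subunit d) was at 508 to 580.1 and 644 to 678 and *Atp5pb* (subunit b) at 182 to 197 and 201 to 219.6, both without overlap of the groups and with unadjusted p-values of 0.0706 and 0.313. *Atp5o*, the subunit that joins this stalk to the head, was at 349 to 587 and 444 to 558, and *Atp5j* at 39.4 to 63.4 and 49.2 to 64.2.

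Several complex IV subunits and the ring-forming subunit c of complex V are made from paralogous genes, and in the Cox4i, Cox6a, Cox6b and Cox8 families the isoform used in most tissues was the more abundant in every library. The second isoform was also abundant in the Cox6b pair. *Cox6b2*, known as the testis isoform, held 36.9%, 39.4% and 33.3% of the summed FPKM of *Cox6b1* and *Cox6b2* in the control group and 38.2%, 37.8% and 39.2% in the aminophylline group. The control values enclosed all aminophylline values. In FPKM, *Cox6b1* was at 218 to 348 and 245 to 331 and *Cox6b2* at 109 to 226 and 157 to 201. *Cox6a2*, the heart and muscle isoform, held 5.14% to 7.99% of its pair over the 6 libraries, at 44.0 to 74.9 FPKM beside 561 to 1169.8 for *Cox6a1*, the most abundant complex IV subunit. The difference of *Cox6a1* was 0.24 ± 0.25 (unadjusted p = 0.357, limma), and after the length and GC correction it was 0.01.

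*Cox4i2*, the isoform of subunit 4 known from lung and low oxygen, was at 3.68, 9.26 and 5.84 FPKM in the control group and 5.90, 14.5 and 7.24 in the aminophylline group. Its highest values were in the libraries numbered 2, and each aminophylline library was above the control library of the same number. Its log2 difference, 0.47 ± 0.35, was the highest of complex IV (unadjusted p = 0.201 without and 0.0299 with the block, limma). Without aminophylline library 2 the difference was 0.13 (unadjusted p = 0.72, limma), without control library 1 it was 0.19, and without control library 2 it was 0.76. *Cox4i2* held 0.872% to 2.57% of the Cox4i pair, and the exact permutation test of this share between the groups gave p = 0.9 (adjusted p = 1), two-sided, where 0.1 is the smallest p that 3 against 3 libraries allow.

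In the subunit 8 family, *Cox8c*, known from testis, held 1.56%, 2.08% and 1.80% in the control group and 1.07%, 1.48% and 1.53% in the aminophylline group. The shares did not overlap, and the exact permutation p, two-sided, was 0.1, the smallest possible (adjusted p = 0.56 over the 14 shares tested). The level of *Cox8c* was 4.62, 7.44 and 4.89 and 4.17, 6.11 and 5.01 FPKM, with overlapping groups and a log2 difference of -0.11 ± 0.24 (unadjusted p = 0.647, limma), while *Cox8a* was at 267 to 349.6 and 324 to 407 (0.30 ± 0.16, unadjusted p = 0.0999). In subunit 7a, *Cox7a2* was at 367 to 593 and 492 to 584, and *Cox7a2l*, a relative that links complexes III and IV into supercomplexes, was at 278 to 373 and 336 to 353. *Cox7b* was at 209 to 283 and 270.1 to 326 (0.33 ± 0.17, unadjusted p = 0.0730).

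**Figure D4:**
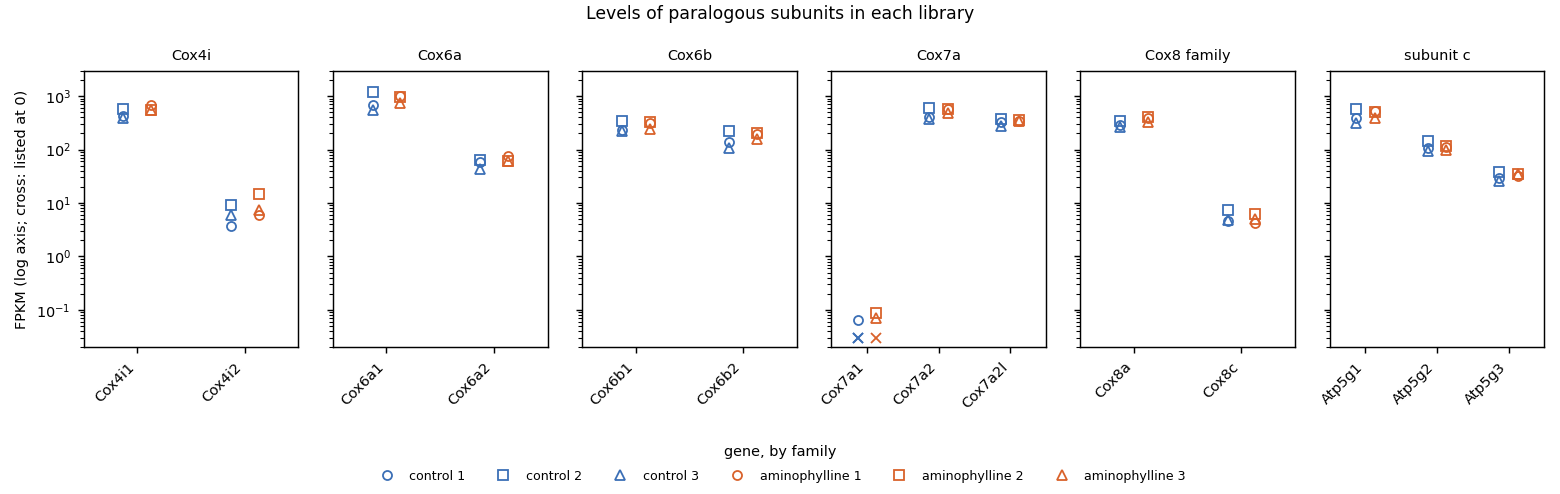
FPKM (log axis) of paralogous subunits in each library (control blue, aminophylline orange; circles, squares and triangles are libraries 1, 2 and 3; crosses mark libraries listed at 0). Cox6b2 lies just below Cox6b1, Cox6a2, Cox4i2 and Cox8c lie far below their partners, Cox7a1 is at or near 0, and the 3 subunit c genes keep the order Atp5g1, Atp5g2, Atp5g3 in every library.

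For subunit c, the proteins made from *Atp5g1*, *Atp5g2* and *Atp5g3* are known to differ in their targeting peptides but not in the mature ring subunit. *Atp5g1* was at 394, 579 and 320 FPKM in the control group and 521, 497 and 385 in the aminophylline group. *Atp5g2* was at 107, 144 and 92.8 and at 113, 117 and 99.5, and *Atp5g3* at 29.4, 37.9 and 25.9 and at 32.6, 35.2 and 34.9. Control library 2 was the highest of the 6 for all of them and control library 3 the lowest. The log2 differences were 0.15 ± 0.22, -0.04 ± 0.19 and 0.15 ± 0.18, and that of *Atp5g2* was the lowest of complex V (unadjusted p = 0.509, 0.842 and 0.428, limma). *Atp5g1* held 72.9% to 78.1% of the summed FPKM of the 3 genes, *Atp5g2* 17.0% to 21.2% and *Atp5g3* 4.89% to 6.72%, with exact permutation p-values of 0.3, 0.2 and 0.9 between the groups (adjusted 0.7, 0.56 and 1). The last 225 bases of the coding sequences before the stop codon, read from GENCODE vM21 (GRCm38) and shown 5′ to 3′, let the genes be told apart. Capitals mark the positions at which at least 1 of the 3 differs.
Atp5g1: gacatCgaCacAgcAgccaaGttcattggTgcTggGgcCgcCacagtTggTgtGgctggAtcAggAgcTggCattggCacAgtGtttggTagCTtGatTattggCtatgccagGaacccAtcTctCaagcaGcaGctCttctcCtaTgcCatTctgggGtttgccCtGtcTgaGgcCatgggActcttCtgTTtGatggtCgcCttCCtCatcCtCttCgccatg
Atp5g2: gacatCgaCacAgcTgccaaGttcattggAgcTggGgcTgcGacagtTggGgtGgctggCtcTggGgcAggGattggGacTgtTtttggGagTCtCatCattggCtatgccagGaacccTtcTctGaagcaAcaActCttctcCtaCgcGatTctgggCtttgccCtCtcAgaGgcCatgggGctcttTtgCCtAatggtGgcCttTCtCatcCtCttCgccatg
Atp5g3: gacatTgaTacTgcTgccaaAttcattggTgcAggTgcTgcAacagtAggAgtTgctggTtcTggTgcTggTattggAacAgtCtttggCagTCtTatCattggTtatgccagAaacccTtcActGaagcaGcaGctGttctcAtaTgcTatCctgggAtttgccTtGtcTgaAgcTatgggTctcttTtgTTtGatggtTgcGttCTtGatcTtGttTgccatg
In these 225 bases 57 positions differ (25.3%), and 52 of the 57 are at the last base of a codon. *Atp5g1* and *Atp5g2* are identical at 84.9% of positions, more than either shares with *Atp5g3* (78.7% for *Atp5g2*). The longest run shared by all 3 is 8 bases. In GRCm38, *Atp5g1* lies on chromosome 11 (96072793 to 96075694), *Atp5g2* on chromosome 15 (102662868 to 102671047) and *Atp5g3* on chromosome 2 (73908447 to 73912464).

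Close copies elsewhere in the annotation could take or give reads for other members. Of the 63 coding sequences, 14 matched another annotated transcript at 95% identity or more over at least 80% of their length, with 36 copies in all, 32 of them annotated as pseudogenes. Besides *Atp5l* and *Cycs*, these were *Atp5h*, *Atp5md*, *Cox7c* and *Uqcrb* with 3 copies each, *Atp5g2*, *Cox6c*, *Cox7b* and *Uqcr11* with 2, and *Atp5g1*, *Atp5o*, *Cox17* and *Cox20* with 1. A single copy, of *Atp5md*, was listed in the table, with 18 reads in the 6 libraries together or 0.109% of those of *Atp5md*. Exons of 23 of the 63 genes overlap those of another annotated gene, 20 of them on the opposite strand, among them *Atp5l*, *Atp5md*, *Cox4i1*, *Cox6c* and *Uqcrc2*. Whether the counting used strand is not given in the sources used here, so it is not known if reads of such a pair were kept apart. In 4 genes (*Atp5g2*, *Atp5o*, *Cox16* and *Cox17*) an overlap was on the same strand, where strand does not separate the reads.

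Many of these genes share promoter elements known from genes of the respiratory chain, the sites of NRF1 and of ETS-family factors such as GABP. RefSeq promoters (GRCm38.p6, windows of 300 bases that span the transcription start) were at hand for 49 of the 63 genes and for 27025 genes in all, and both strands were searched. A gene was counted if any of its windows matched, and the 27025 genes were not limited to those expressed here. The NRF1 motif (GCGC, any base, then TGCGC) was found in 13 of 49 (26.5%), against 5.19% of the 27025 genes. The ETS motif CCGGAAG was found in 21 of 49 (42.9%), against 9.93%. The YY1 motif AAGATGGC was found in 12.2%, against 3.19%, and TATAAA in 8.16%, against 15.7%. The promoter of *Sdha*, at chr13:74350191-74350490 on the minus strand, is shown because it has 3 matches to the NRF1 motif. That of *Atp5k*, at chr5:108434350-108434649 on the minus strand, is shown because this gene was under 0.05 and its promoter has both elements. Capitals mark the NRF1 and ETS matches on either strand, and a match is not evidence of binding.
Sdha: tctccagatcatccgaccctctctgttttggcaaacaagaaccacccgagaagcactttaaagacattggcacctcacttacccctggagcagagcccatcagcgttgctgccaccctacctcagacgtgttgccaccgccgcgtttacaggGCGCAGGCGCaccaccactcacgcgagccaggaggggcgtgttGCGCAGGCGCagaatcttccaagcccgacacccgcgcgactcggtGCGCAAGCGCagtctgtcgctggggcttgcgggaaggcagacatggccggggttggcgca
Atp5k: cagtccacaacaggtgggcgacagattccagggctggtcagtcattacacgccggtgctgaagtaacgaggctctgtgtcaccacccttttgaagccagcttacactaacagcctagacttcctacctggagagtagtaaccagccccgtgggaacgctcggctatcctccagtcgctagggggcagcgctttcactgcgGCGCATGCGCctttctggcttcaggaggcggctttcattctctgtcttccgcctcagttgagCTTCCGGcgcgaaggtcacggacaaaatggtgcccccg
Of the 5 genes at an unadjusted p under 0.05, *Atp5l* and *Atp5md* also held the ETS motif in this window, and neither held the NRF1 motif. *Uqcc3* held none of the 4 motifs named, and *Uqcrq* was not searched, since it had no entry among the promoters.

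Other genes of the same machinery were set beside the 63. The 6 genes of the mitochondrial DNA that encode subunits of complexes III to V were all tested, with a median log2 difference of -0.27. Without the block 0 had an unadjusted p under 0.05, against 4.41% higher and 2.84% lower over all genes tested. With the block 1 was lower, against 4.3%. ATP6, a proton-channel subunit of complex V, was at 15.3, 29.2 and 6.37 FPKM in the control group and 10.3, 9.13 and 8.78 in the aminophylline group, so that its control values enclosed the aminophylline values. The difference was -0.57 ± 0.40 (unadjusted p = 0.186 without and 0.0351 with the block, limma). For ATP6 it was -0.08 (unadjusted p = 0.811) without control library 2 and -1.1 (unadjusted p = 0.00157) without control library 3, and with the length and GC correction the block gave an unadjusted p of 0.121. The 18 tested assembly factors of complexes III to V with other names had a median log2 difference of 0.13. At an unadjusted p under 0.05, 1 of the 18 was higher, against 4.41% of all genes tested. This was *Taco1*, a translational activator of COX1, at 2.42, 3.35 and 3.46 and at 4.64, 4.34 and 4.94 without overlap (0.48 ± 0.21, unadjusted p = 0.0472, adjusted p = 0.684, limma). Its p was 0.139 without control library 1, 0.104, 0.0862 and 0.136 without aminophylline library 1, 2 or 3, and under 0.05 without either other control library.

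Of 8 tested subunits and carriers with other names, 1 was lower at an unadjusted p under 0.05, against 2.84% of all genes tested. With the block 2 were higher, against 9.88%, and 1 was lower, against 4.3%. *Slc25a31*, the adenine nucleotide carrier known from germ cells, was at 172, 97.4 and 161 in the control group and 92.7, 101 and 102 in the aminophylline group, with control library 2 among the aminophylline libraries. Its difference was -0.49 ± 0.21 (unadjusted p = 0.0393, adjusted p = 0.682, limma; 0.0120 with the block). Its p was 0.000331 without control library 2, between 0.0566 and 0.156 without any other library, and its difference was -0.29 after the length and GC correction. *Atpif1*, the inhibitor of ATP hydrolysis by complex V, was at 109, 162 and 89.1 and at 173, 173 and 139, and its difference was 0.46 ± 0.22 (unadjusted p = 0.0547 without and 0.0122 with the block). Without control library 2 the difference of *Atpif1* was 0.70 (unadjusted p = 0.00176), and without control library 3 it was 0.27 (unadjusted p = 0.204). *Slc25a3*, the phosphate carrier that supplies complex V, was at 34.7, 48.9 and 55.7 and at 56.7, 65.5 and 60.2, with no overlap and a difference of 0.41 ± 0.20 (unadjusted p = 0.0615 and 0.0319). Without control library 1 the difference of *Slc25a3* was 0.21 (unadjusted p = 0.228).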

How the data were processed

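RNA was sequenced from oocytes of 3 control and 3 aminophylline libraries, grouped by their labels. The authors deposited a table of FPKM, in which fragment counts had been scaled to transcript length and library total, and the submitters' processing notes name the mouse build GRCm38 (mm10). The aligner, counter, annotation and any use of strand are not given in the sources used here. The 63 members and all gene lists were chosen with earlier results of these data known. The numbers behind the FPKM values were recovered as whole reads from the ratios between libraries, for 22583 of the 25631 genes. All 120146 values fitted a ratio of whole numbers within a relative tolerance of 1e-10. Ratios of very large whole numbers were allowed, so that nearly any value would pass, and this is no check of the recovered reads.

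Groups were compared two-sided with limma 3.58.1 (R 4.3.3), with a variance trend, fitted to log2(FPKM + 1) of genes that reached 1 FPKM in 3 or more libraries. This pseudocount understates the fold change of genes at low levels. Benjamini-Hochberg adjustment ran over all 10340 genes tested. The study's methods give an unpaired two-tailed test, so the fit has no block. The replicate number, 1 to 3 in either group's titles, was used as a replicate block in a second fit. Deviations from the group means correlated at 0.138, 0.140 and 0.552 over the tested genes for the pairs of libraries numbered 1, 2 and 3, which met the criterion of over 0.1 in every pair, and the sources do not say what the numbers share. Control library 2 correlated more with aminophylline library 1 (0.423) than with its own number.

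Alternatives were a pseudocount of 0.1, no filter, a mean of 5 FPKM or more, rescaling to a common sum, median centring, quantile normalization, a linear model without moderation, the replicate block, library weights, voom on the recovered reads, a loess correction (span 0.5) for transcript length and GC content, which was known for 92.0% of the tested genes and all 60 tested members, the same with the block, and leaving out each library. Genes were named if they had the highest mean FPKM among the subunits of their complex, the highest or lowest difference of their complex, an unadjusted p under 0.05 with or without the block, or a paralog in the families described. Other members are given by their ranges. Copies of coding sequences were searched with blastn 2.17.0, and Python 3.11.15, numpy 2.4.6, pandas 2.3.3, scipy 1.17.1 and matplotlib 3.10.9 made the tables and plots. The limma fit was tested on simulated reads, with larger changes than those reported here and no length trend between libraries.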

Additional observations from a re-analysis of the deposited data

How the results depend on the processing

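The number of members higher at an unadjusted p under 0.05, 5 in the reported limma fit, was 10 after rescaling to a common sum, 0 after median centring, 1 in the unmoderated linear model, 13 with the replicate block, 19 with library weights, 8 with the length and GC correction, 15 with that correction and the replicate block, 1 with a fold change over 1.5 as well and 0 at an adjusted p under 0.05. It ranged from 0 to 29 when each library was left out. The number lower, 0 in the reported fit, was 1 after rescaling to a common sum and 0 to 1 when each library was left out. The number of members whose groups do not overlap in either direction, 5 with the deposited values, was 12 after rescaling to a common sum, 12 after quantile normalization, 15 with the length and GC correction, 2 after median centring and 7 to 40 when each library was left out. Over all genes tested, 7.51% were higher and 4.96% lower without overlap with the deposited values. Without control library 2, the setting with 40, these shares were 17.3% and 14.6%. Shares for the other settings were not computed. Causes of these changes were not tested. The median log2 difference of the members stayed above 0 in all 18 alternative fits (0.11 to 0.36), and the smallest adjusted p of a member in any of them was 0.0966. Over all genes tested the median was also above 0, at 0.10 in the reported fit and 0.07 to 0.13 without a control library. Of the single genes named, Atp5g2 and Cox8c changed sign with library weights (0.03 and 0.07), and Atp5g1 (-0.04 to 0.38), Atp5g2 (-0.18 to 0.14), Cox7a2l (-0.01 to 0.20), Cox8c (-0.23 to 0.07) and Cycs (-0.01 to 0.36) when libraries were left out. No other gene under the naming rule above changed sign in these fits. Some members given by ranges changed sign when a library was left out, such as Atp5a1 (-0.1 to 0.31) and Uqcrc1 (-0.54 to 0.35). Depth limits the genes at low levels. Uqcc3 rests on 8 to 62 reads per library and ATP8 on 7 to 23, and the levels of Cox7a1 and Cox20 rest on at most 9 reads per library.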
